A study of Mus musculus with 12 samples.

Results

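The 10 genes described here encode growth factors that act on keratinocytes, together with their main receptor. They are the ligands Areg, Ereg, Hbegf, Tgfa, Epgn, Btc and Egf of the epidermal growth factor (EGF) family, the EGF receptor Egfr, and the keratinocyte growth factors Fgf7 and Fgf10. They were chosen by name for their function, with earlier results of these data known, and matched by gene identifier. All 10 were found among the 55401 genes of the table. RNA sequencing was done on tissue labelled dermis from C57BL/6 mice aged 6 weeks as part of a wounding study, and each of the 4 groups had 3 biological replicates. The groups were wild-type (WT) mice on day 0 and on day 7, and Cthrc1-/- mice, which lack the secreted matrix protein Cthrc1, on day 0 and on day 7. How the Cthrc1 allele was made, the sex of the mice, whether animals were pooled and whether day 0 tissue was taken before or after wounding are not given in the sources used here.

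EGF-family ligands are made as membrane-anchored precursors. Proteases of the ADAM family cut them free, and the released ligand binds Egfr, which signals through Ras and the ERK kinases to drive keratinocyte proliferation and migration in skin repair. Fgf7 and Fgf10 are made by fibroblasts and other mesenchymal cells and act on the epithelial form of the receptor Fgfr2, so they carry signals from the dermis to the epidermis.

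4 of the ligand genes lie side by side on mouse chromosome 5 (GRCm38, GENCODE M21): Epgn at 91027464 to 91035215, Ereg at 91074622 to 91093646 and Areg at 91139599 to 91148432 on the plus strand, and Btc at 91357261 to 91402994 on the minus strand. Together they span 375.5 kb, with gaps of 39.4, 46.0 and 208.8 kb between neighbours. Tgfa lies on chromosome 6 (86195223 to 86275719), Egf on chromosome 3 (129677565 to 129755316), Egfr on chromosome 11 (16752203 to 16918158), Fgf7 on chromosome 2 (126034658 to 126091185) and Fgf10 on chromosome 13 (118669791 to 118792115). All 10 are annotated as protein-coding.

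What makes the ligands a family is the EGF-like domain, whose 6 cysteines pair to hold the fold that binds the receptor. The coding stretch from the first to the last of these cysteines is shown for 6 of the ligands, 5′ to 3′ on the coding strand, because it shows how alike and how distinct the transcripts are that the reads had to tell apart. Capitals mark the 6 cysteine codons. The stretch is coded by exons 3 and 4 in Areg (chr5:91143614-91144364, plus strand), Ereg (chr5:91088496-91089111, plus), Epgn (chr5:91031152-91032237, plus), Btc (chr5:91362421-91366197, minus) and Tgfa (chr6:86263200-86269960, plus), and by exons 20 and 21 in Egf (chr3:129686322-129690850, minus). The coordinates are GRCm38 and include the intron, while the letters are those of the GENCODE transcript.
Areg: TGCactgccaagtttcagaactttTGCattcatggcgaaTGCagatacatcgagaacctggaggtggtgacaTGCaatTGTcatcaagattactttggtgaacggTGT
Ereg: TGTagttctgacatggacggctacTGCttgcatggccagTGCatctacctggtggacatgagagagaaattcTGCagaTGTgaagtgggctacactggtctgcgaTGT
Epgn: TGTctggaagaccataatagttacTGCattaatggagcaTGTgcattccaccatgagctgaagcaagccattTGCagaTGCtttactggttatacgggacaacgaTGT
Btc: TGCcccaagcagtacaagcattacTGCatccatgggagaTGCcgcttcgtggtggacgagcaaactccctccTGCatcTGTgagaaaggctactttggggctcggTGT
Tgfa: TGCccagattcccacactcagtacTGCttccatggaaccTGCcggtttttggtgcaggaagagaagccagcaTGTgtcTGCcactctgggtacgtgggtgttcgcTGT
Egf: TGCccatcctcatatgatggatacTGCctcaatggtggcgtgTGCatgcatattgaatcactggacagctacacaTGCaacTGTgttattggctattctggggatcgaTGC
The cysteine codons fall at the same places in Areg, Ereg, Epgn, Btc and Tgfa, whose stretches are each 108 bases long, and the Egf stretch is 111 bases long. Among these 5 stretches of equal length, base identity over 10 pairs ran from 45.4% (Ereg and Tgfa) to 62.0% (Tgfa and Btc). Over whole transcripts of the 10 genes, the longest exact run shared by any of 45 pairs was 43 bases (Fgf7 and Fgf10), against reads of 150 bases. Genes annotated on the opposite strand overlap Ereg, Tgfa, Egf, Egfr, Fgf7 and Fgf10. The highest level of any of them was 1.54 FPKM (Gm19610, over Ereg), and the strand setting of the counting is not given in the sources used here.

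Total counts per library ran from 48329668 to 76938132, so that a floor of 3 counts was worth 0.0390 to 0.0621 CPM (counts scaled to library size), which covers counting error only. Cthrc1 had at most 15 counts in each Cthrc1-/- library and at least 1813 in each WT library. Of the markers looked up for 10 cell types, all were found in the table. Summed fibroblast markers (Col1a1, Col1a2, Pdgfra, Dcn, Lum) ran from 270.3 to 5230 FPKM over the 12 libraries, and basal keratinocyte markers (Krt5, Krt14, Krt15, Itgb4, Trp63) from 2176 to 8772 FPKM, so the tissue labelled dermis also held epithelial RNA. In bulk tissue, fewer cells of a type and less RNA per cell cannot be told apart. WT day 7 replicate 1 stood apart, with 5045 FPKM of summed neutrophil markers against 740.8 and 39.1 in the other WT day 7 replicates, and with 178 FPKM of suprabasal epidermal markers against 1570 and 3597. Markers of the inner root sheath of the hair follicle summed to 2.38 to 4.70 FPKM in WT day 0, where Krt25 and Krt73 were at 0 in at least 1 library. They summed to 204.7, 4450 and 10760 FPKM in Cthrc1-/- day 0 replicates 1 to 3. On day 7 these sums were 1576 to 3671 FPKM for WT and 460.0 to 4927 FPKM for Cthrc1-/-.

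Levels were compared between genes in FPKM, the number of fragments per kilobase of transcript, scaled for library depth. Averaged over the 12 libraries, Epgn (16.2 FPKM), Hbegf (15.5 FPKM) and Areg (12.7 FPKM) were the most abundant ligands, and Egfr itself stood at 10.5 FPKM. Ereg (6.53 FPKM), Fgf7 (4.86 FPKM), Tgfa (3.90 FPKM) and Fgf10 (1.05 FPKM) followed. Btc (0.594 FPKM) and Egf (0.137 FPKM) were the scarcest. Neighbours in this order overlapped in their ranges over the 12 libraries, so the order of any adjacent pair lies within the spread between samples. With a minimum mean of 1 FPKM for testing, 8 of the 10 genes were tested among 14313 genes. Fgf10 lay just inside that limit and Btc just outside, and Btc and Egf are described by their values.

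**Figure D1:**
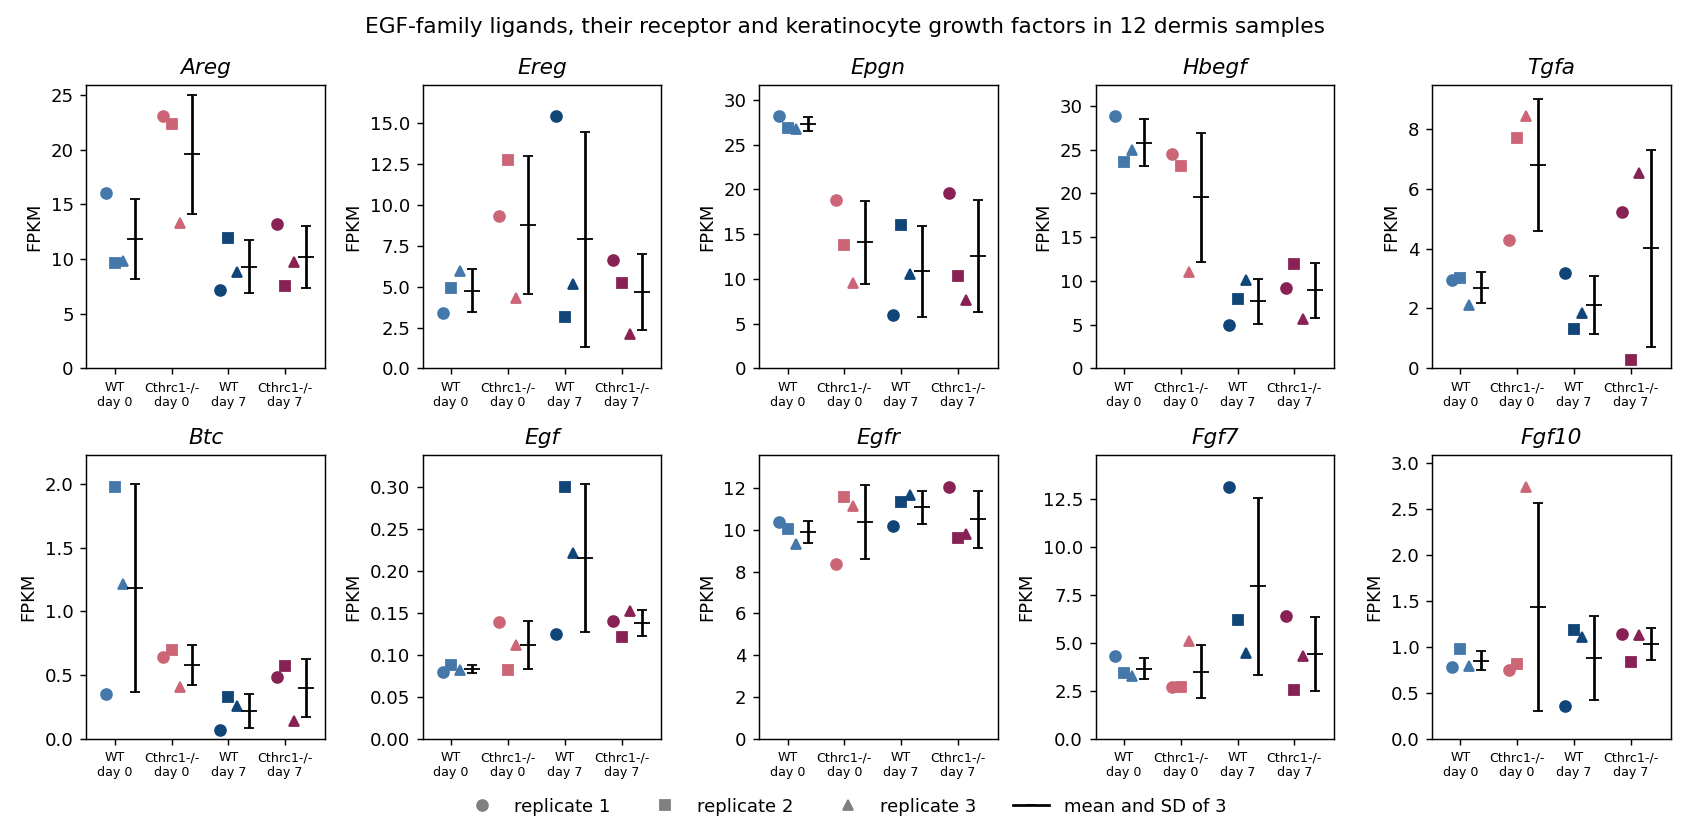
FPKM (vertical axis, from 0) of the 10 genes in each of the 12 libraries, grouped by genotype and day, with each replicate as its own symbol and the mean ± SD of 3 as a bar. Epgn and Hbegf sat highest in WT day 0 on average, Egfr stayed between 8.36 and 12.1 FPKM in every library, and single high libraries stood out for Ereg and Fgf7 (WT day 7 replicate 1) and Fgf10 (Cthrc1-/- day 0 replicate 3).

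The first question was how the ligands changed between day 0 and day 7 in WT skin. Hbegf and Epgn, the most abundant ligands of WT day 0, were the 2 that passed the test, and Btc, too scarce to be tested, was also lower with no overlap. Over all tested genes, 14.1% did not overlap between the days in WT and were lower on day 7, and 29.8% did not overlap and were higher. Of the 8 genes tested, 2 were called (edgeR adjusted p under 0.05), both lower on day 7, where 13.1% of all tested genes were called and 7.10% were called lower. limma called 2 as well, and so did DESeq2, which called 24.8% of all tested genes.

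Hbegf encodes heparin-binding EGF-like growth factor, a ligand made by keratinocytes at wound edges that binds heparan sulfate. Its FPKM values in WT day 0 replicates 1 to 3 were 28.8, 23.6 and 25.0, against 4.92, 7.94 and 10.1 in WT day 7. Every day 7 library lay below every day 0 library, and the lowest was replicate 1. The means were 25.8 ± 2.69 (SD, n = 3) on day 0 and 7.64 ± 2.59 (SD, n = 3) on day 7. The fitted log2 change was -1.96 (standard error, SE, 0.376, 95% interval -2.80 to -1.13), which is 3.90-fold lower, with an edgeR adjusted p of 0.0119. Hbegf was called again whichever of the 12 libraries was left out, with edgeR adjusted p from 0.00315 to 0.0404, and without WT day 7 replicate 1 the log2 change was -1.67.

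Epgn encodes epigen, a ligand of low receptor affinity found in epithelia. Its WT day 0 libraries were closely matched at 28.2, 26.9 and 26.8 FPKM, with a mean of 27.3 ± 0.780 (SD, n = 3). On day 7 they read 5.95, 16.1 and 10.5 FPKM, a mean of 10.8 ± 5.07 (SD, n = 3). All 3 day 7 libraries lay below the day 0 range, and replicate 1 was again the lowest. The fitted log2 change was -1.54 (SE 0.417, 95% interval -2.47 to -0.61), 2.91-fold lower, with an edgeR adjusted p of 0.0385. The Epgn call was lost more often than that of Hbegf, and held in 5 of 12 fits with 1 library left out. It was lost without any single WT day 0 replicate (adjusted p 0.0954, 0.0942 and 0.0966), without WT day 7 replicate 1 (log2 change -1.18, adjusted p 0.113) or 3 (0.0777), and without Cthrc1-/- replicate 2 of day 0 (0.0572) or day 7 (0.0524). The share of all tested genes called also moved, from 13.1% with all libraries. In the same order it was 4.81%, 3.68% and 3.98%, then 8.35% and 14.3%, then 9.92% and 10.6%.

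Marker sums moved over the same comparison. From WT day 0 to day 7, basal keratinocyte markers went from between 7742 and 8772 to between 2176 and 6466 FPKM (5 of 5 markers found), and fibroblast markers from between 3861 and 5230 to between 2577 and 3399 FPKM (5 of 5). Sebaceous gland markers went from between 396 and 496 to between 105 and 241 FPKM (5 of 5), and adipocyte markers from between 136.7 and 176.8 to between 44.9 and 75.5 FPKM (5 of 5). Neutrophil markers went from between 6.25 and 11.7 to between 39.1 and 5045 FPKM (5 of 5), and the inner root sheath markers given above were higher on day 7. None of these 6 lists overlapped between the days in WT. The suprabasal epidermal, macrophage and skeletal muscle lists and the sum of Krt6a, Krt6b, Krt16 and Krt17 did overlap. The part of the 6 shifts in the lower Hbegf and Epgn was not tested.

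The other ligands did not pass the test between days in WT. Areg encodes amphiregulin, which binds heparan sulfate and is an autocrine ligand of keratinocytes. Areg read 16.1, 9.63 and 9.81 FPKM in WT day 0 and 7.19, 11.9 and 8.80 FPKM in WT day 7, with overlapping ranges (log2 change -0.54, 95% interval -1.25 to 0.17, edgeR adjusted p 0.272). Ereg encodes epiregulin, a ligand of both Egfr and Erbb4. It read 3.39, 4.93 and 5.98 FPKM in WT day 0 and 15.4, 3.14 and 5.15 FPKM in WT day 7. WT day 7 replicate 1 held the highest Ereg level of all 12 libraries, while the other WT day 7 libraries lay within or below the day 0 range. The log2 change of Ereg was 0.61 with all libraries (edgeR adjusted p 0.565) and -0.37 without that library. Tgfa encodes transforming growth factor alpha, a high-affinity Egfr ligand of keratinocytes. It read 2.96, 3.02 and 2.12 FPKM in WT day 0 and 3.18, 1.33 and 1.84 FPKM in WT day 7, again with overlap (log2 change -0.50, 95% interval -2.25 to 1.25, edgeR adjusted p 0.705).

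The scarce ligands differed in direction. Btc encodes betacellulin, a ligand of Egfr and Erbb4. Btc read 0.348, 1.98 and 1.22 FPKM in WT day 0 (92, 765 and 297 counts) and 0.0694, 0.327 and 0.256 FPKM in WT day 7 (22, 114 and 82 counts). The day 7 libraries were all lower, by a mean ratio of 5.44, although WT day 0 replicate 1 lay only just above them. Egf encodes the founding ligand of the family, which skin makes in small amounts. It read 0.0790, 0.0881 and 0.0822 FPKM in WT day 0 and 0.124, 0.300 and 0.221 FPKM in WT day 7, with counts between 51 and 260 over all 12 libraries. All WT day 7 libraries were higher for Egf, by a mean ratio of 2.59. With no minimum level for testing, neither gene was called, Btc changing by -2.62 on the log2 scale (edgeR adjusted p 0.0685) and Egf by 1.18 (0.0964).

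Egfr varied least of the 10 genes. Its FPKM values were 10.4, 10.04 and 9.34 in WT day 0, 10.2, 11.3 and 11.7 in WT day 7, 8.36, 11.6 and 11.2 in Cthrc1-/- day 0 and 12.1, 9.59 and 9.82 in Cthrc1-/- day 7. The 4 groups overlapped, and the coefficient of variation over the 12 libraries was 10.7%, against 41.8% to 89.4% for the other 9 genes. The log2 change of Egfr between days in WT was -0.03 in the reported fit (SE 0.133, 95% interval -0.33 to 0.27). Its sign was not fixed, since scaling to total counts gave 0.17, and no Egfr comparison was called under any alternative run.

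Fgf7 encodes keratinocyte growth factor. It read 4.29, 3.40 and 3.26 FPKM in WT day 0 and 13.1, 6.18 and 4.47 FPKM in WT day 7. Every WT day 7 library lay above the WT day 0 range, with replicate 1 far above the other two. The means were 3.65 ± 0.563 (SD, n = 3) and 7.93 ± 4.59 (SD, n = 3), and the log2 change of 0.99 (SE 0.468, 95% interval -0.06 to 2.03) was not called (edgeR adjusted p 0.175). Without WT day 7 replicate 1 the log2 change was 0.40 (edgeR adjusted p 0.553). Fgf10 acts on the same receptor form. It read 0.778, 0.969 and 0.791 FPKM in WT day 0 and 0.350, 1.17 and 1.10 FPKM in WT day 7, with a log2 change of -0.17 (edgeR adjusted p 0.845). WT day 7 replicate 1, the highest library for Fgf7, was the lowest of all 12 for Fgf10, and the sign of the Fgf10 change was positive without it (0.28) and with scaling to total counts (0.06).

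The same question was asked in Cthrc1-/- mice. None of the 8 tested genes was called by edgeR between days, with 1.46% of all tested genes called. At an unadjusted p under 0.05 there were 2, Areg and Hbegf, both lower on day 7. DESeq2 called these 2, where it called 9.84% of all tested genes, and limma called none. 7 of the 8 fitted changes were below 0 on day 7, with a median log2 change of -0.75 against -0.01 over all tested genes.

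Areg read 23.0, 22.3 and 13.3 FPKM in Cthrc1-/- day 0 and 13.2, 7.57 and 9.75 FPKM in Cthrc1-/- day 7. The groups did not overlap, but day 0 replicate 3 lay only just above the highest day 7 library. Over all tested genes, 4.99% did not overlap between the days in Cthrc1-/- and were lower on day 7, and 21.5% did not overlap and were higher. The Areg means were 19.6 ± 5.42 (SD, n = 3) and 10.2 ± 2.83 (SD, n = 3), with a log2 change of -1.12 (SE 0.323, 95% interval -1.84 to -0.40, edgeR adjusted p 0.107). With DESeq2 the adjusted p was 0.0125, and without Cthrc1-/- day 0 replicate 3 the edgeR adjusted p was 0.0427. In that edgeR fit 3.65% of all tested genes were called (333 lower and 189 higher), against 1.46% (86 lower and 123 higher) with all libraries.

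Hbegf read 24.5, 23.1 and 11.04 FPKM in Cthrc1-/- day 0 and 9.16, 11.97 and 5.63 FPKM in Cthrc1-/- day 7. Day 0 replicate 3 lay within the day 7 range and the other day 0 libraries lay well above it. The log2 change was -1.31 (SE 0.369, 95% interval -2.12 to -0.49), with an edgeR adjusted p of 0.0998. DESeq2 gave an adjusted p of 0.00949, and edgeR without Cthrc1-/- day 0 replicate 3 gave 0.0282. The latter fit called 3.65% of all tested genes, against 1.46% with all libraries. Cthrc1-/- day 0 replicate 3 held the highest inner root sheath marker sum of all 12 (10760 FPKM) and the lowest fibroblast marker sum (270.3 FPKM). The part of these in its Hbegf and Areg levels was not tested.

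For the other genes the Cthrc1-/- libraries of the 2 days overlapped. Epgn averaged 14.1 ± 4.66 FPKM on day 0 and 12.6 ± 6.27 FPKM on day 7 (SD, n = 3 each), a log2 change of -0.34 (95% interval -1.25 to 0.57, edgeR adjusted p 0.710). Ereg read 9.32, 12.7 and 4.30 FPKM on day 0 and 6.64, 5.25 and 2.10 FPKM on day 7 (log2 change -1.09, edgeR adjusted p 0.428). Tgfa read 4.27, 7.69 and 8.41 FPKM on day 0 and 5.22, 0.291 and 6.51 FPKM on day 7. Cthrc1-/- day 7 replicate 2 was the lowest of all 12 libraries for Tgfa, at 148 counts against 2676 and 2920 in the other replicates of its group. The log2 change of Tgfa was -0.91 (95% interval -2.67 to 0.85, edgeR adjusted p 0.587). Fgf7 read 2.69, 2.67 and 5.07 FPKM on day 0 and 6.38, 2.54 and 4.28 FPKM on day 7 (log2 change 0.21, edgeR adjusted p 0.859). Fgf10 read 0.748, 0.814 and 2.74 FPKM on day 0 and 1.14, 0.827 and 1.121 FPKM on day 7 (log2 change -0.59, edgeR adjusted p 0.576), and its highest level of all 12 libraries was in day 0 replicate 3. Btc stayed between 0.139 and 0.696 FPKM and Egf between 0.0821 and 0.152 FPKM in the Cthrc1-/- libraries.

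**Figure D2:**
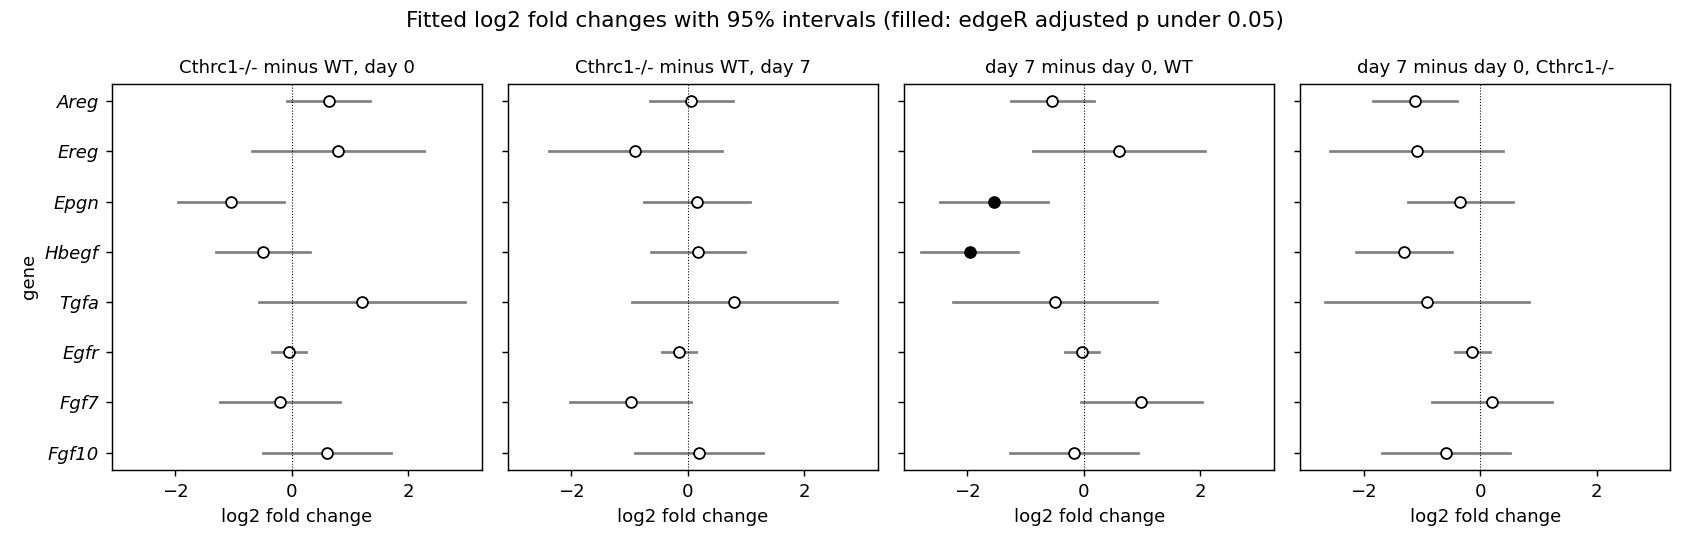
Fitted log2 fold changes (horizontal axis) of the 8 tested genes in the comparisons of genotypes on each day and of days in each genotype, with 95% intervals as lines and filled points for an edgeR adjusted p under 0.05. Epgn (-1.54) and Hbegf (-1.96) between days in WT are the filled points, and the Egfr intervals are the narrowest.

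The next question was whether Cthrc1-/- and WT skin differed on day 0. None of the 8 tested genes was called by edgeR, DESeq2 or limma, with 5.78% of all tested genes called by edgeR. Epgn alone had an unadjusted p under 0.05, at 0.0298, where 28.4% of all tested genes did. In Cthrc1-/- day 0 Epgn read 18.9, 13.8 and 9.56 FPKM, and each of these lay below the WT range of 26.8 to 28.2 FPKM. The log2 change was -1.04 (SE 0.412, 95% interval -1.96 to -0.12), 2.06-fold lower, with an edgeR adjusted p of 0.134.

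Tgfa was the other gene whose day 0 groups did not overlap, with every Cthrc1-/- library (4.27 to 8.41 FPKM) above every WT library (2.12 to 3.02 FPKM). The log2 change of Tgfa was 1.21 (SE 0.796, 95% interval -0.56 to 2.98) and was not called (edgeR adjusted p 0.338). Over all tested genes, 21.5% did not overlap and were higher in Cthrc1-/- day 0, and 19.8% did not overlap and were lower. Mean Areg was 19.6 FPKM in Cthrc1-/- and 11.8 ± 3.67 FPKM (SD, n = 3) in WT, with overlap (log2 change 0.64, 95% interval -0.08 to 1.35, edgeR adjusted p 0.219). Ereg was 8.78 ± 4.24 against 4.77 ± 1.301 FPKM (SD, n = 3 each), also with overlap (log2 change 0.80, edgeR adjusted p 0.454). Hbegf in Cthrc1-/- day 0 replicate 3 (11.04 FPKM) lay far below WT and the other replicates near the WT range (log2 change -0.48, edgeR adjusted p 0.403). Fgf7 (log2 change -0.20, edgeR adjusted p 0.808), Fgf10 (0.61, 0.444) and Egfr (-0.05, 0.841) overlapped between genotypes, and the sign for Egfr was positive with scaling to total counts (0.06). Btc read 0.638, 0.696 and 0.403 FPKM in Cthrc1-/- day 0, inside the WT range, and Egf read 0.139, 0.0821 and 0.111 FPKM, overlapping WT.

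Day 0 marker sums also differed between genotypes. The sum of Krt6a, Krt6b, Krt16 and Krt17, a list drawn up for wound-activated keratinocytes (4 of 4 found), was between 956 and 1052 FPKM in WT and between 2230 and 3683 FPKM in Cthrc1-/-. This sum did not set the days apart, since on day 7 it was between 908 and 3108 FPKM in WT and between 1829 and 3645 FPKM in Cthrc1-/-. Which cells it came from was not tested. On day 0, suprabasal epidermal markers (5 of 5) summed to between 1894 and 2236 FPKM in WT and between 407 and 1470 FPKM in Cthrc1-/-. Fibroblast markers summed to between 3861 and 5230 FPKM in WT and between 270.3 and 1872 FPKM in Cthrc1-/-. Macrophage (22.4 to 53.5 FPKM in Cthrc1-/- against 68.0 to 84.4 in WT), skeletal muscle (44.4 to 185.7 against 204.4 to 482.4) and adipocyte markers (69.6 to 100.4 against 136.7 to 176.8) were also lower. Neutrophil markers (22.6 to 88.5 against 6.25 to 11.7) and the inner root sheath markers given above were higher. None of these lists overlapped between the genotypes on day 0, while the basal keratinocyte and sebaceous gland lists did. The part of the differing lists in the Epgn and Tgfa levels was not tested.

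The same comparison was made on day 7. None of the 8 tested genes was called by edgeR, DESeq2 or limma, none had an unadjusted p under 0.05, and 0.0210% of all tested genes were called by edgeR. All 10 genes overlapped between the genotypes, and over all tested genes 6.46% did not overlap and were higher in Cthrc1-/- and 2.67% did not overlap and were lower. Fgf7 had the largest fitted change, from means (± SD, n = 3 each) of 7.93 ± 4.59 FPKM for WT against 4.40 ± 1.93 FPKM for Cthrc1-/-, or -0.98 on the log2 scale (95% interval -2.02 to 0.06, edgeR adjusted p 0.918). Ereg (log2 change -0.90, edgeR adjusted p 0.968) and Tgfa (0.80, 0.988) came next, with intervals of -2.38 to 0.59 and -0.96 to 2.56. WT day 7 replicate 1 set the sign for Ereg, whose log2 change was 0.16 without it. Areg (0.06), Epgn (0.16), Hbegf (0.18), Egfr (-0.15) and Fgf10 (0.19) had smaller fitted log2 changes, and those of Areg, Epgn, Hbegf and Fgf10 changed sign when some single library was left out.

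Whether the change between days itself differed between genotypes was tested as an interaction. None of the 8 genes was called by edgeR, DESeq2 or limma, none had an unadjusted p under 0.05, and 0.0140% of all tested genes were called by edgeR. Epgn, which was called lower on day 7 in WT and not in Cthrc1-/-, had an interaction of 1.20 on the log2 scale (95% interval -0.08 to 2.49, edgeR adjusted p 0.357). The interaction of Hbegf was 0.66 (95% interval -0.48 to 1.80, edgeR adjusted p 0.548), that of Areg -0.58 (95% interval -1.58 to 0.43, edgeR adjusted p 0.552) and that of Ereg -1.70 (95% interval -3.79 to 0.40, edgeR adjusted p 0.412). Each of these intervals reaches past a log2 difference of 1 in its wider direction.

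The make-up of the ligand pool was described by summing the FPKM of the 7 ligands in each library. The sum was 79.8, 70.1 and 71.0 FPKM in WT day 0 and 36.9, 41.0 and 36.8 FPKM in WT day 7. All WT day 7 sums lay below all WT day 0 sums. In Cthrc1-/- the sum was 80.8, 80.5 and 47.2 FPKM on day 0 and 54.5, 36.1 and 31.9 FPKM on day 7, with day 0 replicate 3 inside the day 7 range. Hbegf and Epgn made up 35.0% ± 1.23 and 37.1% ± 1.60 of the WT day 0 sum (SD, n = 3), and Areg 15.9% ± 3.67. In Cthrc1-/- day 0, Areg had 28.2% ± 0.383, Hbegf 27.5% ± 3.62 and Epgn 20.3% ± 3.08 (SD, n = 3). The Epgn share in Cthrc1-/- day 0 (17.2% to 23.4%) lay below the WT day 0 share (35.3% to 38.3%), and the Areg share (27.8% to 28.5%) above it (13.7% to 20.1%). On day 7 the mean shares of Epgn, Areg and Hbegf lay closer between genotypes, but their spread between libraries was mostly wider. In WT day 7, Epgn had 27.9% ± 11.5, Areg 24.1% ± 4.78 and Hbegf 20.0% ± 7.02 (SD, n = 3). In Cthrc1-/- day 7 they had 29.6% ± 6.06, 25.2% ± 4.87 and 22.5% ± 9.18 (SD, n = 3). The mean Ereg share was 21.2% ± 18.2 in WT day 7 and 11.1% ± 4.09 in Cthrc1-/- day 7 (SD, n = 3). Ereg ran from 7.64% to 41.8% in WT day 7, the highest share being that of replicate 1. Btc held at most 2.83% and Egf at most 0.732% of the pool in any library.

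**Figure D3:**
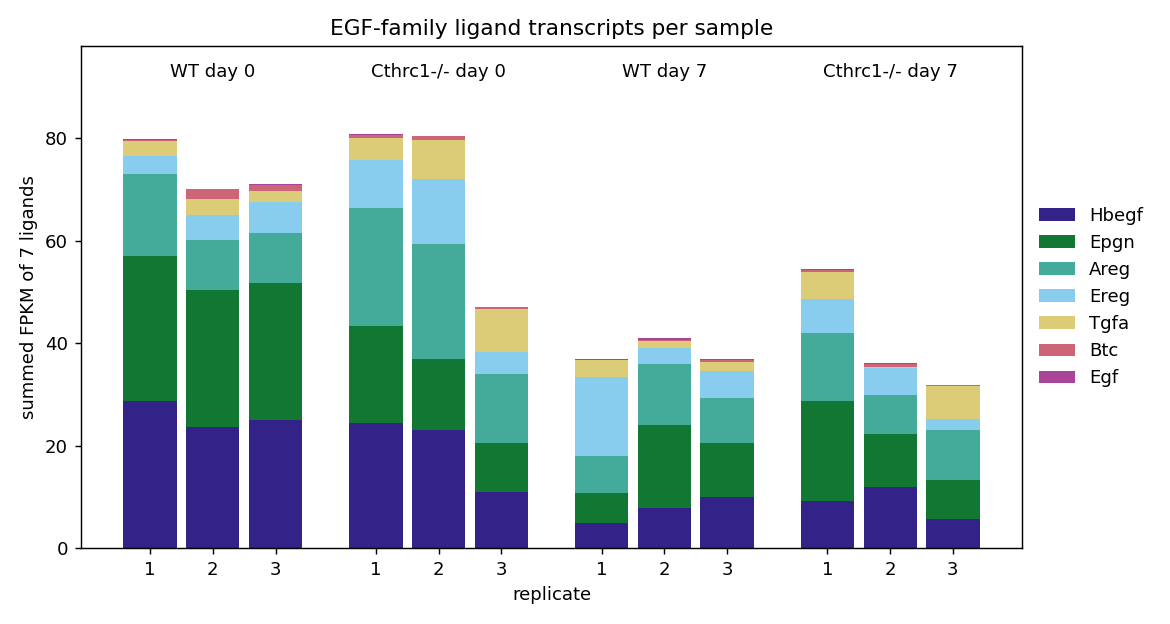
Summed FPKM of the 7 EGF-family ligands (vertical axis, from 0) in each library, stacked by ligand, with replicates along the horizontal axis within each group. WT day 7 libraries reach 36.8 to 41.0 FPKM and WT day 0 libraries 70.1 to 79.8 FPKM, and the Hbegf and Epgn blocks account for most of the WT day 0 bars.

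Genes that act before, at and after the receptors were taken from 6 lists drawn up from textbook pathway membership. The lists were chosen with earlier results of these data known, so their counts of called genes describe the lists only. Among the other ErbB receptors and neuregulins, 3 of 7 genes (Erbb2, Erbb3 and Nrg2) were abundant enough to test and none was called by edgeR, DESeq2 or limma in any of the 5 comparisons. The median log2 change of the 3 between days in WT was -0.16.

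Ligand shedding genes are the proteases, chaperones and inhibitors that govern release of the ligands. Between days in WT, edgeR called 3 of 8 (37.5%, where 13.1% of all tested genes were called), 2 higher and 1 lower. Adam12 encodes a metalloprotease that can shed Hbegf. It read 2.82, 0.896 and 1.15 FPKM in WT day 0 and 15.9, 15.8 and 8.27 FPKM in WT day 7, with no overlap. The log2 change of Adam12 was 2.88 (SE 0.519, edgeR adjusted p 0.00955). In Cthrc1-/- it read 0.833, 0.879 and 0.360 FPKM on day 0 and 8.79, 6.74 and 7.46 FPKM on day 7 (log2 change 3.29, SE 0.530, edgeR adjusted p 0.0235). Adam12 was the 1 of 8 shedding genes that edgeR called there, where 1.46% of all tested genes were called. limma on log2(FPKM + 1) called Adam10 as well, where it called 5.41% of all tested genes. Adam12 was called in WT in all 12 fits with 1 library left out, and in Cthrc1-/- in 8 of 12. Adam10, a protease for several EGF-family ligands, was higher on day 7 in WT (11.5 ± 0.379 to 19.0 ± 1.92 FPKM, SD, n = 3 each, edgeR adjusted p 0.0440), and Timp3, an inhibitor of ADAM proteases, was lower (64.7 ± 2.73 to 32.8 ± 8.98 FPKM, SD, n = 3 each, edgeR adjusted p 0.0383). These calls held in 4 and 5 of 12 fits with 1 library left out. On day 0, Rhbdf1, which encodes a partner protein of the sheddase Adam17, was lower in Cthrc1-/- (9.67 ± 0.824 against 13.5 ± 0.714 FPKM, SD, n = 3 each, log2 change -0.58, edgeR adjusted p 0.0438). It was the 1 of 8 shedding genes that edgeR called on day 0, where 5.78% of all tested genes were called. The Rhbdf1 call held in 2 of 12 such fits and in 3 of 8 other alternatives, and was lost with limma at both pseudocounts (adjusted p 0.0548 and 0.0516).

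The signal relay list holds the adaptors and kinases that carry the signal from receptor to ERK and its branches. Of 19 genes, edgeR called 2 (10.5%, against 13.1% of all tested genes), both lower on day 7 in WT and both small: Sos1 (log2 change -0.42, edgeR adjusted p 0.0458) and Sos2 (-0.38, 0.0446), the exchange factors that load Ras. Each was called in 3 of 12 fits with 1 library left out and in 2 of 8 other alternatives. Both overlapped between the days in FPKM. WT day 7 replicate 3 read 4.05 for Sos1 and 3.89 for Sos2, against 3.84 to 4.08 and 3.69 to 3.85 in WT day 0. limma on log2(FPKM + 1) called 1 of 19, Akt1, higher on day 7, where it called 13.4% of all tested genes. DESeq2, which called 24.8%, called 4 of 19, Akt1 higher and Sos1, Sos2 and Pik3ca lower. The list's median log2 change between days was 0.09 in WT and -0.08 in Cthrc1-/-.

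Feedback inhibitors are induced by the pathway and dampen it. Between days in WT edgeR called 2 of 14 (14.3%, close to the 13.1% of all tested genes), both lower: Spry2, which blocks Ras activation (15.8 ± 1.02 to 9.53 ± 1.31 FPKM, SD, n = 3 each, log2 change -0.92, edgeR adjusted p 0.0305), and Spred2 (log2 change -0.46, edgeR adjusted p 0.0385). In Cthrc1-/- edgeR called 1 of 14, where 1.46% of all tested genes were called. This was Dusp4, a phosphatase of ERK, which fell from 2.45 ± 0.0934 to 1.24 ± 0.0933 FPKM (SD, n = 3 each, log2 change -1.13, edgeR adjusted p 0.0216). DESeq2, which called 9.84% of all tested genes in Cthrc1-/-, called 4 of the 14 there, all lower: Dusp4, Dusp6 (adjusted p 0.00531), Errfi1 (0.0301) and Lrig1 (0.0420). With 1 library left out, Spry2 was called in 7, Spred2 in 3 and Dusp4 in 8 of 12 fits. The list's median log2 change was -0.39 in WT and -0.33 in Cthrc1-/-, against -0.0019 and -0.013 over all tested genes.

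Of the FGF receptors and other paracrine growth factors, 10 of 13 were tested and edgeR called 2 of them between days in WT, both lower, where 7.10% of all tested genes were called lower. Fgf18 encodes a ligand of the hair follicle that holds hair stem cells at rest. It read 27.3, 35.97 and 30.3 FPKM in WT day 0 and 5.54, 1.42 and 0.558 FPKM in WT day 7, which on the log2 scale is -3.73 (SE 0.935, edgeR adjusted p 0.0299). In Cthrc1-/- it read 10.9, 7.20 and 3.14 FPKM on day 0 and 0.994, 1.65 and 0.260 FPKM on day 7, lower on day 7 in every library. This was not called by edgeR (log2 change -3.03, adjusted p 0.117) or limma, and was called by DESeq2 (-3.04, adjusted p 0.00468). Fgf1, which encodes acidic FGF, read 4.28 ± 0.185 FPKM in WT day 0 and 1.35 ± 0.309 FPKM in WT day 7 (SD, n = 3 each, log2 change -1.86, SE 0.349, edgeR adjusted p 0.0112). With 1 library left out, Fgf1 was called in 12 of 12 and Fgf18 in 8 of 12 fits. Fgfr2, the receptor gene whose epithelial form binds Fgf7 and Fgf10, was not called between days in WT (log2 change -0.73, edgeR adjusted p 0.117) or between genotypes on day 0 (-0.84, 0.103), and was named after its values had been seen.

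Immediate early and ERK output genes are switched on by growth factor signalling. Between days in WT, edgeR called 6 of 13 lower and 1 higher, where 7.10% of all tested genes were called lower and 13.1% either way. Egr1, a transcription factor gene induced by ERK, read 425, 494 and 454 FPKM in WT day 0 and 121, 97.7 and 134 FPKM in WT day 7 (log2 change -2.14, SE 0.347, edgeR adjusted p 0.00657). Myc, a driver of cell growth, read 74.9, 76.1 and 76.6 FPKM in WT day 0 and 20.1, 18.4 and 29.7 FPKM in WT day 7 (log2 change -1.93, SE 0.290, edgeR adjusted p 0.00605). Neither gene overlapped between the days. The change was -1.70 for Ier2 (edgeR adjusted p 0.00570) and -1.73 for Jun, a part of the AP-1 factor (0.0136). Egr1, Myc and Ier2 were called in 12 of 12 fits with 1 library left out, and Jun in 11, losing its call without WT day 0 replicate 2 (adjusted p 0.0504). The gene called higher was Etv4 (log2 change 1.32, edgeR adjusted p 0.0454), an ERK-induced factor of the Ets family named after its values had been seen.

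In Cthrc1-/- edgeR called 2 of the 13 immediate early and ERK output genes between days, where 1.46% of all tested genes were called: Egr2 (34.3 ± 8.08 to 3.00 ± 1.75 FPKM, SD, n = 3 each, log2 change -3.68, edgeR adjusted p 0.0216) and Ier2 (220.0 ± 55.3 to 101.1 ± 21.0 FPKM, SD, n = 3 each, log2 change -1.29, edgeR adjusted p 0.0401), both lower on day 7. DESeq2 called 4 of the 13, these 2 with Egr1 (adjusted p 0.00337) and Myc (0.0462), where it called 9.84% of all tested genes. The list's median log2 change was -1.17 in WT and -1.10 in Cthrc1-/-, against -0.0019 and -0.013 over all tested genes. On day 0, Myc was lower in Cthrc1-/- (46.1, 35.0 and 21.0 FPKM) than in WT, with no overlap (log2 change -1.24, SE 0.284, edgeR adjusted p 0.0402). Myc was the 1 of the 13 genes that edgeR called on day 0, where 5.78% of all tested genes were called. DESeq2, which called 19.5% of all tested genes on day 0, called 3 of the 13, Myc, Fos and Egr1, all lower in Cthrc1-/-. It also called 2 of 8 shedding genes (Rhbdf1, Timp3, both lower) and 5 of 19 relay genes (4 higher, 1 lower). Further DESeq2 calls were 2 of 14 feedback inhibitors (Dusp4, Socs5, both higher) and 2 of 10 FGF-list genes (Fgf22 higher, Fgf18 lower). On day 0 limma on log2(FPKM + 1) called Myc and Fgf18, both lower. With 1 library left out, Egr2 was called in 9, Ier2 in 3 and Myc in 3 of 12 of these fits. No gene of any of the 6 lists was called by edgeR or limma between genotypes on day 7 or in the interaction. DESeq2 called 1 gene of these lists in both, Dusp4, which was lower in Cthrc1-/- on day 7 (log2 change -0.65, adjusted p 0.00153, where DESeq2 called 0.433% of all tested genes). On day 0 Dusp4 was higher in Cthrc1-/-, at 2.34 to 2.52 FPKM against 1.66 to 1.86 FPKM in WT. DESeq2 called this too (log2 change 0.41, adjusted p 0.0199, where DESeq2 called 19.5%). The interaction of Dusp4 was -1.06 on the log2 scale with DESeq2 (adjusted p 1.8e-05, where DESeq2 called 4.76%). The edgeR adjusted p for Dusp4 was 0.188 on day 0, 0.881 on day 7 and 0.193 for the interaction.

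**Figure D4:**
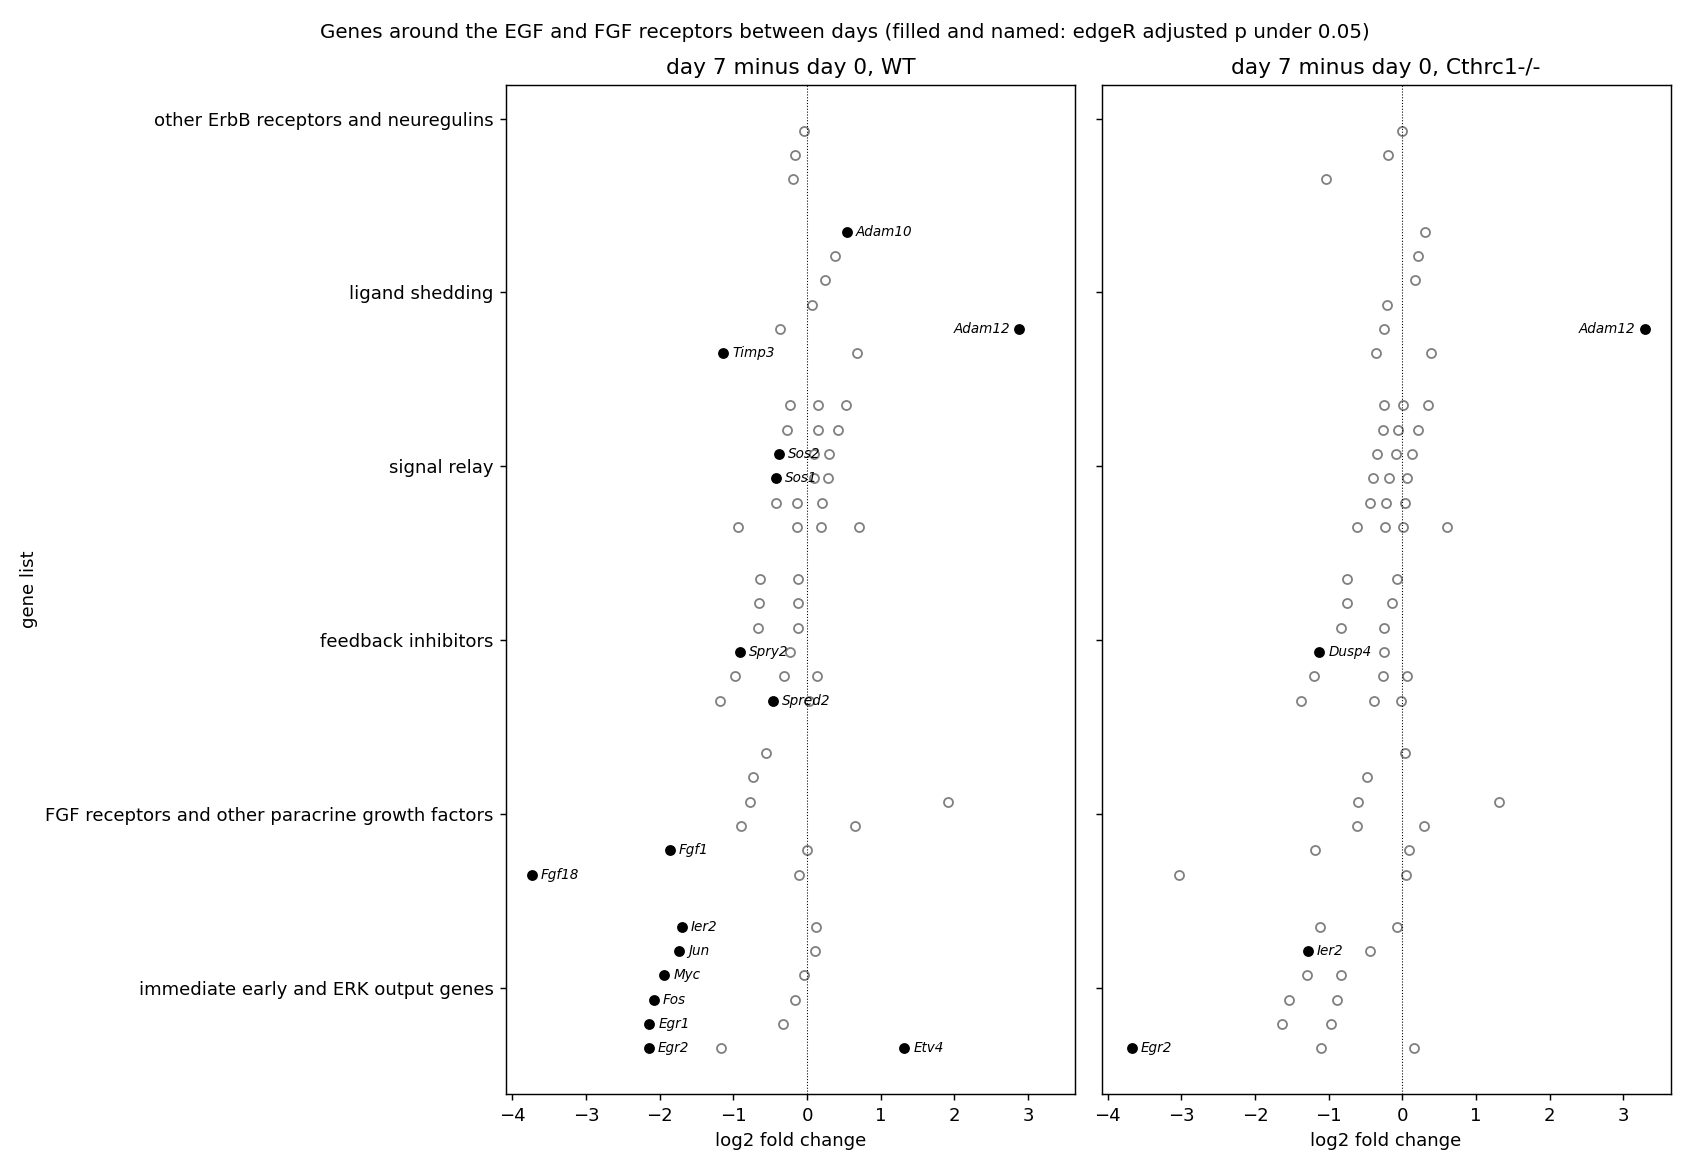
Fitted log2 fold changes (horizontal axis) between day 7 and day 0 for the tested genes of the 6 pathway lists, WT on the left and Cthrc1-/- on the right, each gene a point, filled and named where the edgeR adjusted p was under 0.05. In WT, 6 of the 7 filled points of the immediate early list lie to the left of 0, and Adam12 lies to the right in both genotypes (2.88 and 3.29).

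Finally, the genes whose levels followed each member most closely were listed, by Pearson's r of log2(FPKM + 1) over the 12 libraries among 12704 named genes. The 12 libraries fall into 4 groups and share genotype, day and tissue make-up, so these values describe the libraries only. Hbegf was closest to Mex3c (r = 0.980) and Dkk2 (0.975), and Epgn to Scara5 (0.965) and Abca8b (0.957). Fgf10 was closest to Sun2 (0.960) and to Nrg2 (0.959), and Fgf7 to Copb2 (0.926) and Tbl2 (0.905). Ereg was closest to Pim1 (0.880) and Gcnt2 (0.869), Areg to Entpd5 (0.858) and Plet1 (0.853), Tgfa to Rhov (0.845) and Slc15a2 (0.795), and Egfr to Atrn (0.877) and Raver1 (0.870). Among the tested members themselves the highest value was that of Hbegf and Epgn (0.803) and the lowest that of Hbegf and Fgf7 (-0.706). Areg and Ereg, neighbours on chromosome 5, had 0.192, and Ereg and Epgn, also neighbours there, had -0.148.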

How the data were processed

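The libraries were paired-end, made from poly(A)-selected RNA with dUTP marking and molecular identifiers per the labels' protocols, and sequenced with reads of 150 bases. The submitters' processing notes name cutadapt 1.9, HISAT2 2.0.4, UMI-tools, StringTie 1.3.4d, DESeq2, edgeR and the GRCm38 build, with no role or order given here. The authors deposited a whole-number count and an FPKM value per gene and sample. Low deposited counts favour multiples of 4, so for Egf and Btc a count may not be 1 fragment. A gene with a count of 0 carries an FPKM of 0.0001 in the deposited table, taken as 0. Per-sample value columns left unused numbered 0. Symbols and positions came from GENCODE M21 by gene ID, which named 55141 of 55401 IDs.

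Counts were tested with the two-sided quasi-likelihood test of edgeR 4.0.16 (TMM) in R 4.3.3, with all 12 samples in 1 fit, a mean for each of 4 groups and Benjamini-Hochberg adjustment over the 14313 genes with a mean of at least 1 FPKM. The threshold for a call was an adjusted p of 0.05. Because of TMM, fitted log2 changes can differ from ratios of mean FPKM. Standard errors were derived from each log2 change and its F statistic. Groups and replicate numbers came from the sample titles. Alternatives were DESeq2 1.42.0, limma 3.58.1 on log2(FPKM + 1) and log2(FPKM + 0.1), total-count scaling, no minimum level, counts divided by 4, only the groups compared, a replicate block and each library left out. EGF-like stretches were found by the spacing of 6 cysteine codons in GENCODE transcripts. The genes and lists were chosen with earlier results of these data known. By rule, all 10 genes were reported, with the 2 genes most like each tested member and at most 4 called genes for each list and comparison, by smallest p. On simulated counts for the day 0 comparison of genotypes (14313 genes, 200 of them changed by a log2 size of 2), edgeR recovered 67.5% of the changed genes and 4.93% of its calls were false.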

Additional observations from a re-analysis of the deposited data

How the results depend on the processing

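The 40 log2 changes of the 8 tested genes were recomputed in 792 fits over 20 alternatives, of which 745 kept direction and side of the threshold, 9 lost a call, 4 gained one and 34 changed sign. The count of members called between days in WT, 2 as reported, was 1 with total-count scaling and 1 with no minimum level (Epgn adjusted p 0.0549 and 0.0596), and 1 to 2 with 1 library left out. Between days in Cthrc1-/- it was 2 with DESeq2 in place of 0, and 0 to 2 with 1 library left out. Replicate numbers recur in all groups, and no pairing was assumed in the reported fit. Correlations of the deviations ran from -0.232 to 0.426 for same-numbered samples and from -0.453 to 0.520 for different-numbered samples. Between days in WT the same-numbered values (0.0232 to 0.0869) were small but lay above the different-numbered ones (-0.0833 to 0.0157). With the replicate number as a block, 2 members were called between days in WT (Epgn adjusted p 0.0479) and 0 in the other comparisons. The sign changes lay in changes that were not called. For Egfr on day 0 the log2 change was 0.0063 with DESeq2, 0.05 with limma at either pseudocount (0.0474 and 0.0504), 0.0619 with total-count scaling and 0.0205 with only the groups compared. For Egfr between days it was 0.0139 (DESeq2), 0.14 and 0.16 (limma) and 0.17 (total-count scaling) in WT, and 0.02 (limma, 0.0217 and 0.0242) and 0.0352 (total-count scaling) in Cthrc1-/-. For Fgf10 between days in WT it was 0.0628 with total-count scaling. With 1 library left out, the log2 changes that crossed 0 ranged as follows. Egfr ran from -0.16 to 0.0603 on day 0, -0.0631 to 0.0643 between days in WT and -0.22 to 0.0101 in the interaction. Fgf10 ran from -0.17 to 0.89 on day 0, -0.17 to 0.46 on day 7, -0.44 to 0.28 between days in WT, -0.87 to 0.19 between days in Cthrc1-/- and -0.86 to 0.36 in the interaction. On day 7, Hbegf ran from -0.10 to 0.43, Areg from -0.17 to 0.26, Epgn from -0.31 to 0.55 and Ereg from -1.30 to 0.16. Ereg between days in WT ran from -0.37 to 1.004, Fgf7 between days in Cthrc1-/- from -0.17 to 0.51 and the interaction of Tgfa from -0.94 to 0.14. The cause of these differences was not tested. Total-count scaling moved the median log2 change of all genes to 0.20 between days in WT and 0.16 in Cthrc1-/-, and the share of calls that were higher from 46.0% to 75.5% and from 58.9% to 86.9%. Counts called over all genes also depended on the fit, from 18 to 2787 on day 0, 0 to 62 on day 7, 527 to 3551 between days in WT, 5 to 1409 in Cthrc1-/- and 0 to 681 in the interaction. With 3 libraries a group, the standard error between days in WT was 0.788 for Tgfa and 0.665 for Ereg against 0.376 for Hbegf, so the same change was harder to detect in Tgfa and Ereg.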
